A study of Mus musculus with 6 samples.

Results

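Cholesterol synthesis and its control were followed through 28 genes in the skin of mice given osimertinib and of untreated mice. The genes are a list of pathway members matched by symbol, drawn up with earlier results of these data known: 18 enzymes of synthesis, 4 genes of sterol sensing and 6 genes of sterol transport, uptake control and efflux. All 28 were found in the deposited table of 33308 genes, and all 28 were among the 13498 genes tested. Bulk RNA-seq was done on 3 skin samples from untreated mice (controls 1 to 3) and 3 from mice treated for 42 days with osimertinib, a kinase inhibitor that blocks the epidermal growth factor receptor. Strain, genotype, sex, age, dose and body site are not stated in the sources used here, and the labels leave unsaid whether each sample is a different animal, so the p-values speak only of how far these 6 samples spread, which may be technical. Library totals ran from 54112624 to 60719064 counts, and the lowest count of any of the 28 genes in any library was 479, so counting error was small beside the spread between libraries.

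Cells make cholesterol from acetyl-CoA by way of mevalonate, isoprenoid units, squalene and lanosterol. When membrane sterol is low, the transcription factor SREBP2 (gene Srebf2) is carried by SCAP from the endoplasmic reticulum to the Golgi, is cut there, and raises transcription of the synthesis enzymes. INSIG proteins hold SCAP back when sterol is plentiful, and the sterol-activated receptors LXR raise export through the transporters ABCA1 and ABCG1. In skin, cholesterol is needed by dividing keratinocytes, is a main lipid of the barrier of the outer epidermis, and is made in large amounts by sebaceous glands.

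The libraries differed in the tissue they held, which bears on every value below. Skeletal muscle markers, 24 of 24 detected in every library, made up 5.31%, 15.8% and 0.0614% of all counts for controls 1, 2 and 3, against 5.29% to 8.64% in treated skin. Sebaceous gland markers, 21 of 21 detected in every library, made up 0.307%, 0.229% and 0.221% in controls 1, 2 and 3, and 0.153%, 0.134% and 0.346% in osimertinib 1, 2 and 3. Of the 19 tested, 7 had log2 fold changes, osimertinib over control, above 0 and 12 below (median −0.43). Over all genes tested, 54.7% were below 0. EdgeR called 0 of the 19, and DESeq2 called 2 as lower (Dgat2 and Acsbg1), against 6.36% of all genes in either direction. Markers of basal and suprabasal keratinocytes, 12 of 12 detected in every library, took 1.03% to 4.34% in controls and 1.21% to 2.14% in treated skin. Although these shares overlapped, 12 of the 12 had log2 fold changes, osimertinib over control, below 0 (median −1.10), against 54.7% of all genes tested. EdgeR called 0 of these markers, and 0.0% of all genes tested, at an adjusted p under 0.05. At an unadjusted p under 0.05 it counted 3 of the 12, all lower, against 14.0% of all genes. DESeq2 called 1, Dst, as lower (DESeq2 adjusted p = 5.98e-05), against 6.36% of all genes in either direction. Hair shaft and inner root sheath markers, of which 13 of 20 were detected in every library, made up 0.00272% to 0.0339% in controls and 0.113% to 0.943% in treated skin. In such bulk samples, fewer cells of a type and less RNA per cell cannot be told apart.

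No sterol gene passed the adjusted threshold of 0.05 between osimertinib and control skin. The fold changes went both ways. On the log2 scale, osimertinib over control, 12 were above 0 and 16 below, from −0.98 for Hsd17b7 to 0.68 for Insig1, with a median of −0.10 against −0.05 over all genes tested. The quasi-likelihood test of edgeR called 0 of the 28 genes and 0.0% of all genes tested after Benjamini-Hochberg adjustment, and the smallest adjusted p of a sterol gene was 0.374. At an unadjusted p under 0.05, edgeR counted 0 of the 28 genes, against 14.0% of all genes, and the smallest unadjusted p was 0.0586 for Insig1. DESeq2 called 0 of the 28 after adjustment, against 6.36% of all genes, and 1 at an unadjusted p under 0.05, against 18.2%. Insig1 was the only sterol gene with every treated library above every control, a pattern seen in 11.3% of all genes. In 0 of the 28 was every treated library below every control, against 9.38% of all genes.

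**Figure D1:**
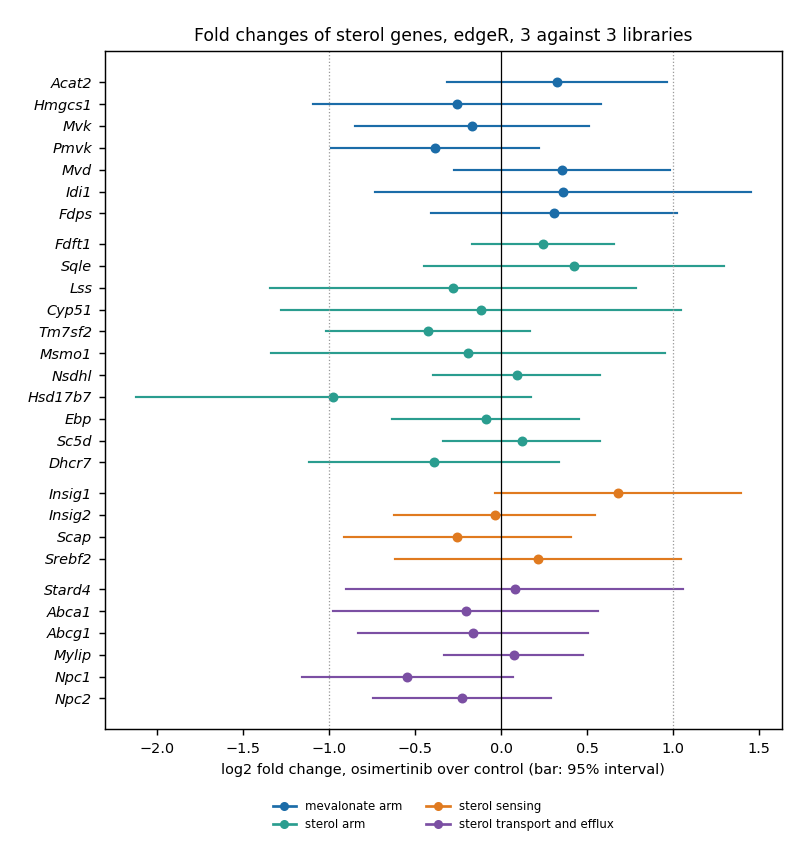
Log2 fold change of each of the 28 sterol genes, osimertinib over control, with its 95% interval from edgeR (3 libraries per group); dotted lines mark a change of 1 log2 unit either way. All 28 intervals include 0, and the points run from −0.98 (Hsd17b7) to 0.68 (Insig1).

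How large a change the data leave possible differed between genes. The 95% interval lay within 1 log2 unit either side of 0 for 14 of the 28 genes, and standard errors ran from 0.17 for Mylip to 0.48 for Cyp51. In 25 of the 28 genes the log2 fold change itself was within 0.5 of 0, and the same held for 73.4% of all genes tested. Single libraries moved these values. Without control 2, 4 of the 28 sterol genes had an unadjusted p under 0.05 (Hsd17b7, Pmvk, Dhcr7 and Tm7sf2, all with negative values), against 22.1% of all genes in that fit, the median was −0.21 and the smallest adjusted p was 0.203. Without control 1 the median was 0.10, and Insig1 and Sqle had unadjusted p under 0.05, against 6.66% of all genes (smallest adjusted p = 0.717, edgeR). At the same threshold edgeR counted Npc1 without osimertinib 2, against 7.76% of all genes, and Abca1 and Hsd17b7 without osimertinib 3, against 10.1%.

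The 7 enzymes of the mevalonate arm, which lead from acetyl-CoA to farnesyl diphosphate, had a median log2 fold change of 0.31, with 4 above 0 and 3 below. Hmgcs1 (chromosome 13, 119690379 to 119708260), the cytosolic HMG-CoA synthase that commits acetyl units to the pathway, was at 330, 155 and 304 CPM (counts relative to the library total, corrected for library composition by TMM) in controls 1, 2 and 3, and at 196, 186 and 278 CPM in osimertinib 1, 2 and 3. All 3 treated values lay between control 2 and control 3. Its log2 fold change was −0.26 ± 0.34 (SE, n = 3 per group), with a 95% interval from −1.09 to 0.58. Idi1, the isomerase that makes dimethylallyl diphosphate, was at 87.7, 35.5 and 49.2 CPM in controls against 54.6, 51.8 and 115 CPM after osimertinib, so that the highest library was treated and the lowest a control. Its log2 fold change was 0.36 ± 0.45, with an interval from −0.74 to 1.45.

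Fdps, the farnesyl diphosphate synthase that feeds both sterols and protein prenylation, was at 142, 69.5 and 114 CPM in controls against 133, 156 and 114 CPM after osimertinib. Control 2 stood below the other 5 libraries, which overlapped (log2 fold change 0.31 ± 0.30). Acat2, the cytosolic thiolase of the first step, was at 37.2 ± 8.59 CPM in controls against 46.6 ± 12.7 CPM after osimertinib (SD, n = 3 each). Mvd, the decarboxylase of mevalonate diphosphate, was at 37.4 ± 10.7 and 47.8 ± 9.49 CPM in the same order. The kinases before it had negative fold changes: −0.17 ± 0.28 for mevalonate kinase (Mvk) and −0.38 ± 0.25 for phosphomevalonate kinase (Pmvk, 59.9 ± 13.7 and 46.0 ± 9.64 CPM). In none of these 5 genes did the groups separate. The arm thus held neighbouring steps with fold changes of opposite sign, each with an interval that includes 0. With single libraries left out, the median of the arm ran from −0.08 without osimertinib 3 to 0.52 without control 1, and was 0.09 without control 2 and 0.18 without osimertinib 2.

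The 11 enzymes of the sterol arm, which turn farnesyl diphosphate into cholesterol, had a median log2 fold change of −0.12, with 4 above 0 and 7 below. The median was −0.40 without control 2 and 0.18 without control 1, and lay between −0.23 and 0.03 without each of the other 4 libraries. Squalene synthase (Fdft1), which takes farnesyl diphosphate into sterols, was at 105, 82.1 and 78.7 CPM in controls against 103, 101 and 110 CPM after osimertinib. The treated libraries lay close together at the level of control 1 and above the other 2 controls (log2 fold change 0.24 ± 0.17, interval −0.17 to 0.66). Squalene epoxidase (Sqle), the oxygen-dependent and often rate-limiting step after it, was at 70.6, 26.1 and 42.2 CPM in controls against 54.1, 65.8 and 66.3 CPM after osimertinib. Here control 1 was above all treated libraries and controls 2 and 3 were below all of them (0.42 ± 0.36, interval −0.45 to 1.30). Lanosterol synthase (Lss), which closes the sterol rings, was at 66.8, 19.9 and 38.7 CPM in controls against 26.0, 39.2 and 38.1 CPM after osimertinib, a log2 fold change of −0.28 ± 0.44.

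Cyp51 and Msmo1 act next on lanosterol, by removing its methyl groups at C14 and C4. Cyp51 (chromosome 5, 4081145 to 4104746) was at 266, 97.7 and 197 CPM in controls against 130, 117 and 271 CPM after osimertinib. Msmo1 (chromosome 8, 64718139 to 64733792) was at 278, 115 and 197 CPM in controls against 131, 108 and 276 CPM after osimertinib. Both genes were about as high in osimertinib 3 as in control 1, and about as low in osimertinib 1 and 2 as in control 2. Their log2 fold changes were −0.12 ± 0.48 and −0.19 ± 0.47, the former with the largest standard error of the 28 genes. Tm7sf2, a sterol C14 reductase of the endoplasmic reticulum, was at 19.4 ± 4.54 CPM in controls against 14.4 ± 2.44 CPM after osimertinib (−0.43 ± 0.24), with osimertinib 3 above control 2.

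Hsd17b7, which reduces the 3-keto group left by C4 demethylation, had the most negative fold change of the 28. It was at 109, 39.4 and 60.4 CPM in controls 1, 2 and 3 against 26.8, 24.8 and 54.6 CPM in osimertinib 1, 2 and 3. Osimertinib 1 and 2 lay below every control, while osimertinib 3 lay between controls 2 and 3. Its log2 fold change was −0.98 ± 0.47 with an interval from −2.13 to 0.17 (edgeR adjusted p = 0.421; DESeq2 adjusted p = 0.270). Nsdhl, which acts in the same demethylation complex, differed by 0.09 ± 0.20, from 17.6 ± 2.71 CPM in controls to 18.8 ± 2.54 CPM after osimertinib.

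The last steps of the arm rearrange and reduce the double bonds of the sterol. The isomerase Ebp was at 41.8 ± 9.20 and 39.3 ± 6.71 CPM in control and treated skin (log2 fold change −0.09 ± 0.22). The desaturase Sc5d was at 32.0 ± 5.25 and 34.7 ± 4.17 CPM (0.12 ± 0.19). Dhcr7, which makes cholesterol from 7-dehydrocholesterol, the compound that keratinocytes also turn into vitamin D3 under light, was at 71.3, 41.0 and 73.7 CPM in controls against 62.0, 41.6 and 38.4 CPM after osimertinib (−0.39 ± 0.30, interval −1.12 to 0.34). Controls 1 and 3 were above all treated libraries, and control 2 was among them.

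The sensing genes included Insig1, the only gene of the list whose groups did not overlap. INSIG1 is both a brake on SREBP2 and, through its own transcription, a target of it. Insig1 (chromosome 5, 28071363 to 28078662) was at 27.6, 21.0 and 12.7 CPM in controls 1, 2 and 3 against 30.3, 36.3 and 31.8 CPM in osimertinib 1, 2 and 3. The gap between the groups was narrow, from control 1 to osimertinib 1. The means were 20.4 ± 7.46 and 32.8 ± 3.11 CPM (SD, n = 3 each), a log2 fold change of 0.68 ± 0.30 with an interval from −0.03 to 1.40 (edgeR adjusted p = 0.374; DESeq2 adjusted p = 0.284). The groups also did not overlap in deposited FPKM, in counts per library total, and in counts per library total without muscle genes. The value was 0.51 when the muscle score of each library entered the fit, and without control 3, the library almost without muscle, it was 0.44.

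Insig2, the second INSIG gene, whose transcription does not follow SREBP2 in the same way, was at 68.3, 73.6 and 41.6 CPM in controls against 65.1, 55.9 and 57.7 CPM after osimertinib (log2 fold change −0.04 ± 0.24, interval −0.62 to 0.55). Per length, in FPKM, Insig1 stood at 0.454, 0.321 and 0.343 of the level of Insig2 in controls 1, 2 and 3, and at 0.523, 0.729 and 0.619 of it in osimertinib 1, 2 and 3. This ratio, looked at after the values of both genes had been seen, also did not overlap between the groups. It was 1 of 4 such ratios computed, and the other 3 (Npc1 to Npc2, Srebf2 to Scap and Abca1 to Abcg1) overlapped. Insig2 was the more abundant of the pair in all 6 libraries.

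Srebf2 and Scap, which encode the transcription factor and its escort, did not differ beyond their error. Srebf2 was at 183, 73.2 and 145 CPM in controls against 165, 163 and 138 CPM after osimertinib, with control 2 below the other 5 libraries (log2 fold change 0.21 ± 0.34, interval −0.62 to 1.05). Scap was at 94.7, 69.5 and 140 CPM in controls against 91.5, 83.6 and 79.5 CPM after osimertinib (−0.26 ± 0.27, interval −0.92 to 0.41). In both genes the 3 treated libraries lay inside the range of the controls.

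**Figure D2:**
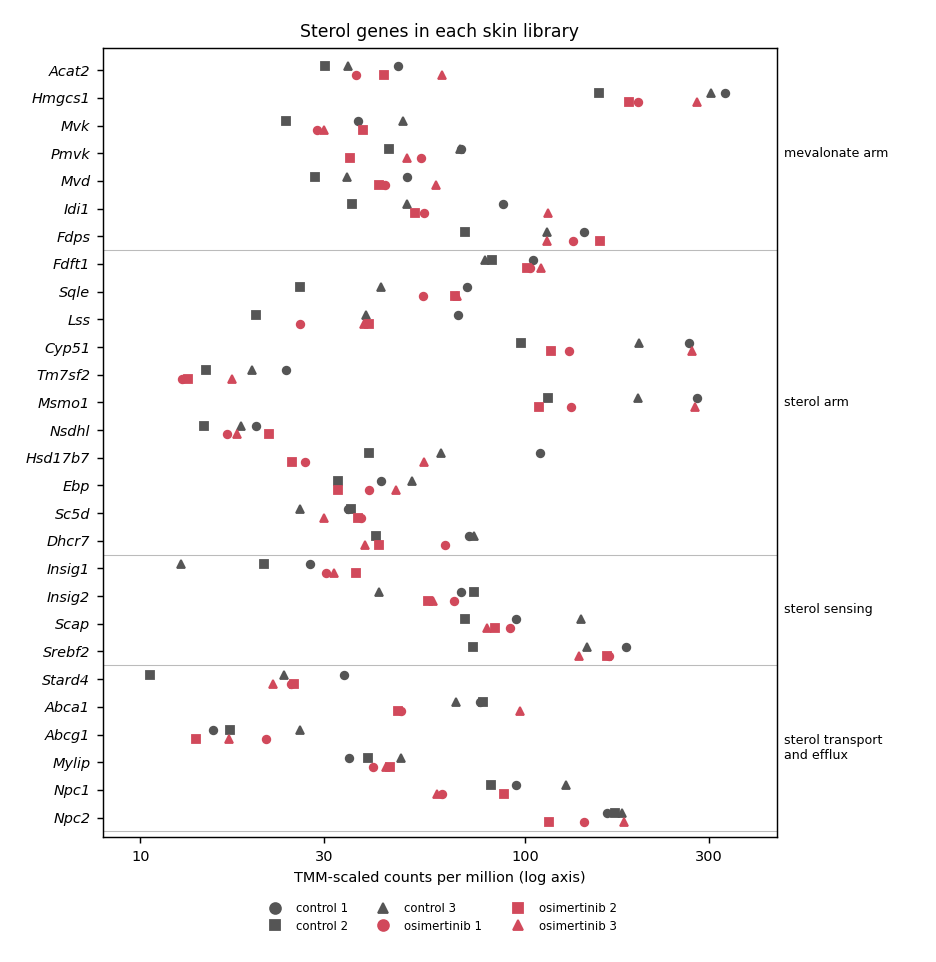
Level of each of the 28 sterol genes in each of the 6 libraries, as TMM-scaled CPM on a log axis; grey symbols are controls, red symbols osimertinib, and the symbol's shape gives the replicate number. Only Insig1 has all red points (30.3 to 36.3 CPM) to the right of all grey points (12.7 to 27.6 CPM).

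The 6 genes of transport, uptake control and efflux had a median log2 fold change of −0.18, with 2 above 0 and 4 below. The median was −0.05 without control 3, −0.03 without osimertinib 2 and −0.12 without osimertinib 1. It lay further from 0 without control 1 (−0.22), without control 2 (−0.22) and without osimertinib 3 (−0.26). Npc1, the membrane protein that moves cholesterol out of lysosomes, was at 94.7, 81.4 and 127 CPM in controls against 60.8, 88.2 and 59.0 CPM after osimertinib. Osimertinib 1 and 3 were below every control, and osimertinib 2 was above control 2 (log2 fold change −0.54 ± 0.25, interval −1.16 to 0.07, edgeR adjusted p = 0.403). A gene on the opposite strand, Rmc1, overlaps Npc1, and whether counting used strand is not stated in the sources used here, so reads of the pair may have been shared. Npc2, the soluble lysosomal partner that hands cholesterol to NPC1, was at 163, 171 and 178 CPM in controls against 142, 115 and 180 CPM after osimertinib (−0.23 ± 0.21).

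The LXR targets of the list gave no common direction. Abca1, which loads cholesterol onto apolipoprotein A-I, was at 76.5, 77.8 and 65.9 CPM in controls against 47.5, 46.6 and 96.8 CPM after osimertinib. Osimertinib 1 and 2 lay below all controls and osimertinib 3 above them, so the log2 fold change of −0.21 ± 0.32 averages unlike libraries, and without osimertinib 3 it was −0.62 (edgeR adjusted p = 0.454). Abcg1, which exports cholesterol to HDL, was at 15.4, 17.1 and 25.9 CPM in controls against 21.3, 14.0 and 17.0 CPM after osimertinib (−0.16 ± 0.28). Mylip, the ubiquitin ligase that sends the LDL receptor for degradation, was at 40.5 ± 6.52 and 42.6 ± 2.22 CPM (0.07 ± 0.17, interval −0.33 to 0.48). Stard4, a cytosolic sterol carrier and SREBP2 target, was at 33.9, 10.6 and 23.6 CPM in controls against 24.6, 25.1 and 22.1 CPM after osimertinib (0.08 ± 0.40).

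Libraries of the same group differed widely in the synthesis enzymes. Summed over the 18 enzymes, the level was 1848, 905 and 1454 CPM in controls 1, 2 and 3, and 1184, 1153 and 1671 CPM in osimertinib 1, 2 and 3. All 3 treated sums lay between control 2 and control 1. The highest control was 1.91 times the lowest at the median enzyme, against 1.60 over the 13310 tested genes with counts in every library, and the highest treated library 1.46 times the lowest, against 1.36. The ratio among controls reached 3.35 for Lss, 3.20 for Stard4 among the transport genes, 2.77 for Hsd17b7 and 2.73 for Cyp51, and was 1.33 for Fdft1.

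The control libraries ranked much alike across the enzymes, and the treated libraries less so by count. Control 2 was the lowest control in 16 of the 18 enzymes, the exceptions being the 2 in which control 3 was lowest (Fdft1 and Sc5d). Over all genes tested control 2 was lowest in 49.8%. Control 1 was the highest control in 14 of the 18, against 24.1% of all genes, and osimertinib 3 was the highest treated library in 11 of the 18, against 31.9% of all genes. The lowest treated library was osimertinib 1 in 6, osimertinib 2 in 9 and osimertinib 3 in 3 of the 18. A score per library, which averages over the 18 enzymes each log2 CPM less its mean for that gene, was 0.43, −0.47 and 0.09 in controls 1, 2 and 3, and −0.13, −0.14 and 0.22 in osimertinib 1, 2 and 3. Transport genes scored 0.10, −0.15 and 0.27 in controls and −0.12, −0.15 and 0.04 in treated skin. As for the enzymes, control 2 was the lowest control and osimertinib 3 the highest treated library, but control 3 was above control 1.

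**Figure D3:**
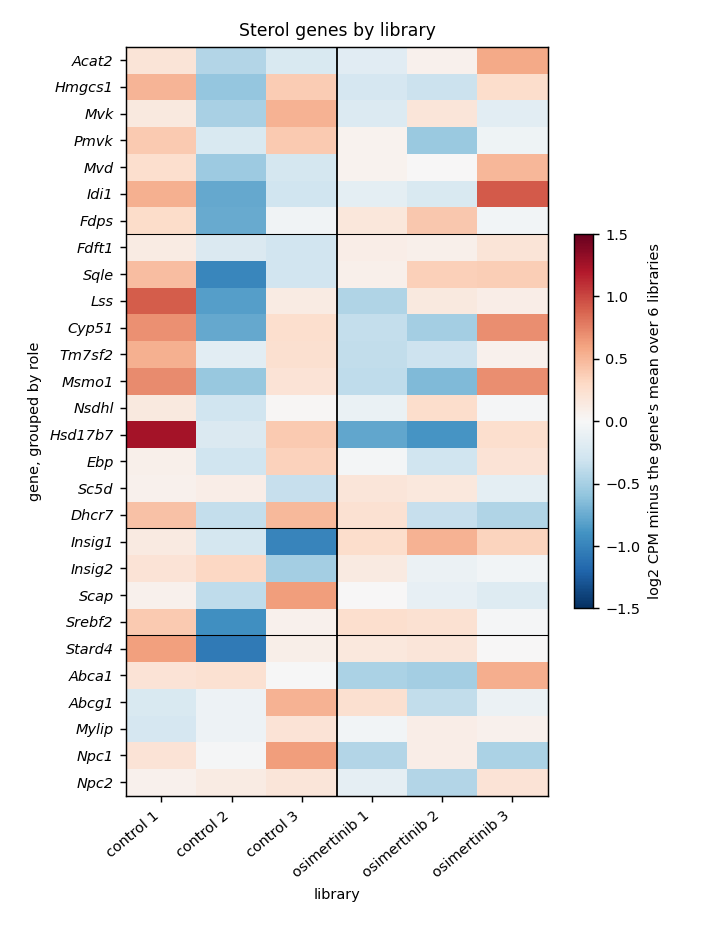
Log2 CPM of each of the 28 sterol genes after subtracting its average across 6 libraries (red above, blue below); columns are libraries, with controls left of the vertical line, and horizontal lines separate the 4 roles. The column of control 2 is blue for most synthesis enzymes (lowest control in 16 of 18) and control 1 is red (highest control in 14 of 18), and osimertinib 3 is the highest treated library in 11 of 18.

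Marker lists of other tissue parts moved with this order in part. The sebaceous gland score was 0.66, 0.01 and −0.16 in controls 1, 2 and 3, and −0.37, −0.57 and 0.43 in osimertinib 1, 2 and 3, so that control 1 and osimertinib 3 were highest in their groups for sebaceous markers as they were for synthesis enzymes. Control 2, lowest for the enzymes, was the middle control for sebaceous markers and held the most muscle (15.8% of the count). The basal and suprabasal keratinocyte score was 0.76, −0.30 and 1.14 in controls, and 0.20, −0.62 and −1.19 in osimertinib 1, 2 and 3. Here control 2 was again the lowest control, but control 3 was highest and osimertinib 3 lowest, unlike for the enzymes. Control 3, with 0.0614% muscle, was the middle control for the enzymes. The part of these tissues in the enzyme levels was not tested beyond 2 other fits. The median log2 fold change of the 28 genes was 0.03 when the muscle score entered the fit, and with muscle genes removed before scaling it was −0.08. Neither fit called a sterol gene.

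**Figure D4:**
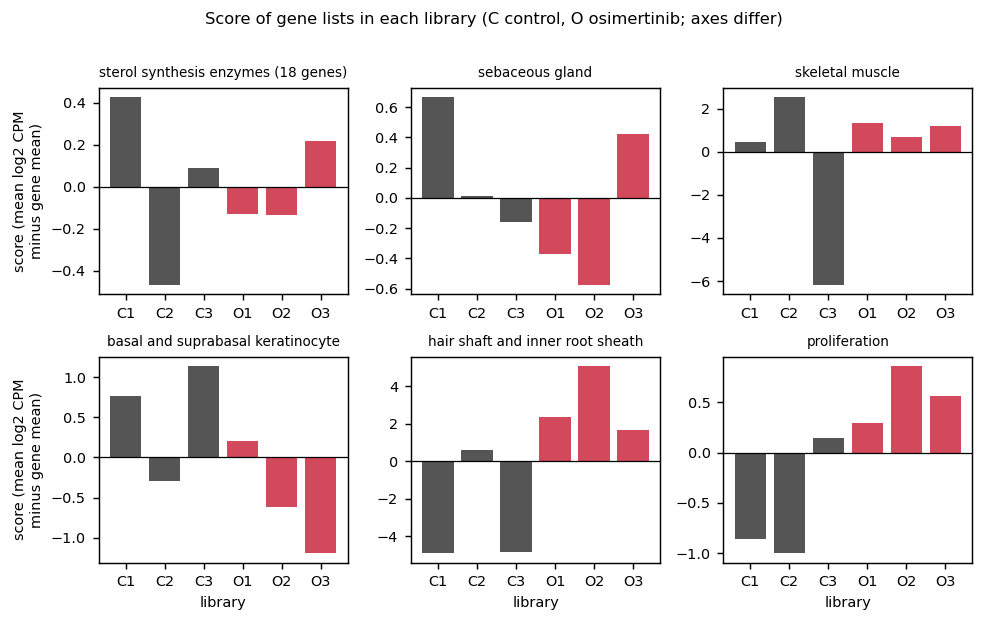
Score of 6 gene lists in each library, averaged over genes as log2 CPM less each gene's own mean, with controls in grey (C1 to C3) and osimertinib in red (O1 to O3); the vertical axes differ between panels. The synthesis enzymes are highest in C1 (0.43) and lowest in C2 (−0.47) with the treated libraries between, whereas hair shaft and inner root sheath markers are higher in every treated library than in every control.

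Promoter sequence was examined because the enzymes are known to share control by SREBP2 with the cofactors NF-Y, which binds CCAAT boxes, and SP1, which binds GC boxes. RefSeq windows on GRCm38.p6, from 250 bases before to 50 after the start site, were matched for 22 of the 28 genes. The sequences shown belong to Hmgcs1, Idi1, Cyp51 and Msmo1, enzymes in which control 2 was the lowest control, and to the INSIG pair, of which Insig1 alone had separated groups. They are given 5′ to 3′ on the strand of the gene, and capitals mark a CCAAT box (CCAAT, or ATTGG where it lies on the other strand) or a short sterol element (CACNCCAC, on either strand).
Hmgcs1, chr13:119690101-119690400, plus strand: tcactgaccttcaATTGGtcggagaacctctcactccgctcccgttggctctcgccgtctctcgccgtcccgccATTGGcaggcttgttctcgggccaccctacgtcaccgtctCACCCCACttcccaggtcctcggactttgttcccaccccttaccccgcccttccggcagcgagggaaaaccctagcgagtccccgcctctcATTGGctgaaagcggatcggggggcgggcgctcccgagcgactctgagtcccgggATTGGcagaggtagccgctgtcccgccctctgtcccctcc
Idi1, chr13:8885356-8885655, plus strand: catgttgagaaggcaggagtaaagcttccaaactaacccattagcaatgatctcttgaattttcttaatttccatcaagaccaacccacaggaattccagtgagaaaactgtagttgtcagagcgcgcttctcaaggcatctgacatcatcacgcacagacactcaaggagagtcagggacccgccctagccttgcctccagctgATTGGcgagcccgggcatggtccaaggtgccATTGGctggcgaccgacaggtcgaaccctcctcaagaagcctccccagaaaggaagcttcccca
Cyp51, chr5:4104648-4104947, minus strand: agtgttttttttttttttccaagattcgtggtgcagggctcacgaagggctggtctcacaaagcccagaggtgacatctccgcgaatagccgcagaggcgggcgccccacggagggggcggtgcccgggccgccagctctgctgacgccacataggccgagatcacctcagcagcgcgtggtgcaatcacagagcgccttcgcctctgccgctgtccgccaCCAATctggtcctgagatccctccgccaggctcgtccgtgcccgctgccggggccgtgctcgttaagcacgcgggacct
Msmo1, chr8:64733529-64733828, minus strand: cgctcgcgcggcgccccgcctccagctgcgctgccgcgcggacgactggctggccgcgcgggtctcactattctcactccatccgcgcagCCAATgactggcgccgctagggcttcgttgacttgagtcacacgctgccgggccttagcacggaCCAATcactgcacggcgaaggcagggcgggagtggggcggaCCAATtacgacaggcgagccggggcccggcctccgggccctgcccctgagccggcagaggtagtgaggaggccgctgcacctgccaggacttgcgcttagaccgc
Insig1, chr5:28071162-28071461, plus strand: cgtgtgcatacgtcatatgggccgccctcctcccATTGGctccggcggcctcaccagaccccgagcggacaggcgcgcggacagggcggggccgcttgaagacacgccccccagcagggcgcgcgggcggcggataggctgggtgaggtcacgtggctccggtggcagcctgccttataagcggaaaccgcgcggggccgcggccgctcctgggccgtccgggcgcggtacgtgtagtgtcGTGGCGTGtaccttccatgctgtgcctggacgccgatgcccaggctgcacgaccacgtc
Insig2, chr1:121332540-121332839, minus strand: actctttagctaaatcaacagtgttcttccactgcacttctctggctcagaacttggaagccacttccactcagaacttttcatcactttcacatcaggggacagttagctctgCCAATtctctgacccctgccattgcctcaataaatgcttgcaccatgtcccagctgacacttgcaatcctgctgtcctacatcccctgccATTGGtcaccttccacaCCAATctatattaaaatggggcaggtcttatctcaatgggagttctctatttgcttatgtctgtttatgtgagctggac

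A CCAAT box was in 18 of the 22 windows, with 40 matches in all, against 37.4% of all 32851 windows of the table and 38.4% of the windows of tested genes. A GC box (GGGCGG, either strand) was in 20 of the 22, against 35.7% of all windows and 64.5% of those of tested genes. The sterol element core TCACNCCAC was in the window of Hmgcs1 only, 137 to 129 bases before the start, against 1.24% of all windows. Its short form CACNCCAC, which every match of the core contains, was in Acat2, Hmgcs1 and Insig1, against 6.24% of all windows. Mvk held 5 CCAAT boxes, Hmgcs1 and Nsdhl held 4, and Acat2, Dhcr7, Scap and Abca1 held 0. These matches are letters in a window, not binding sites, and a window without a match says nothing of the factor. Insig1, with separated groups, held 1 CCAAT box and 3 GC boxes, and Insig2, with overlapping groups, held 3 and 0.

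**Figure D5:**
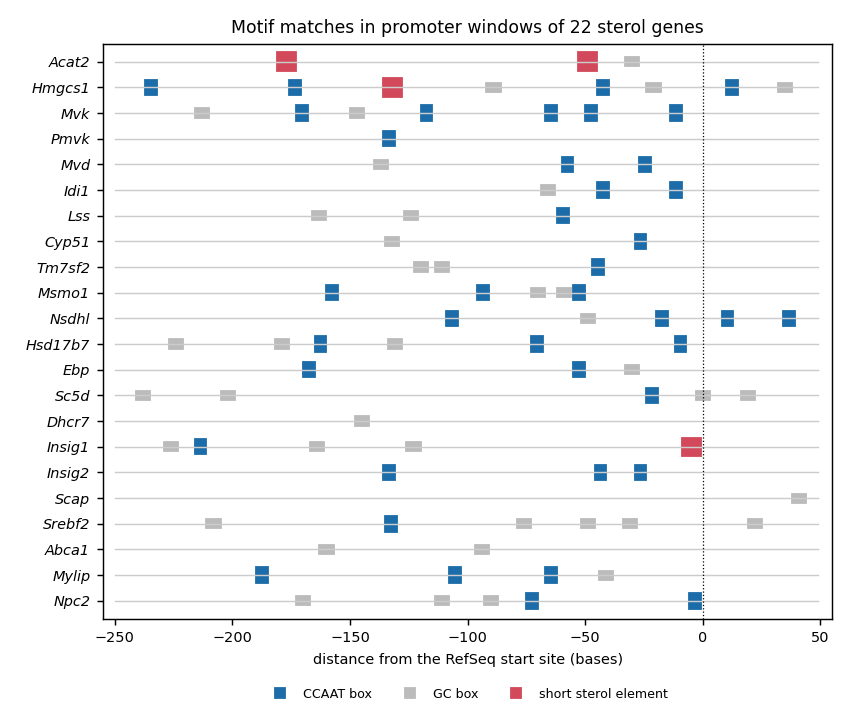
Motif matches in the promoter windows of the 22 sterol genes with a RefSeq window, by distance from the start site in bases; blue marks CCAAT boxes, grey GC boxes and red the short sterol element. CCAAT boxes appear in 18 rows and the short sterol element in 3 (Acat2, Hmgcs1 and Insig1).

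Levels of different genes can be compared per length, in FPKM. In control skin Hmgcs1 was the most abundant of the 28 at 49.2 ± 22.7 FPKM (SD, n = 3), followed by Cyp51 at 36.5 ± 19.2, Pmvk at 29.7 ± 10.7, Msmo1 at 27.4 ± 13.5 and Npc2 at 26.1 ± 4.83 FPKM. The differences between neighbours in this order were within their SDs. The lowest levels were those of Stard4 at 3.51 ± 2.02, Lss at 3.33 ± 2.05 and Abcg1 at 2.26 ± 0.967 FPKM. In treated skin Hmgcs1 was again highest, at 41.8 FPKM, and Abcg1 lowest, at 2.07 FPKM. Reads may have been shared with an overlapping gene on the opposite strand in 8 of the 28 genes, among them Cyp51 (with Akap9) and Fdft1 (with Ctsb), and with one on the same strand in 3.

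Log2 fold changes of other sterol genes also went both ways, over a wider range (−1.11 to 2.44, beside −0.98 to 0.68 for the 28 genes). Of 40 further genes of sterol synthesis, uptake, esterification and oxidation, 34 were tested, with 16 log2 fold changes above 0, 18 below and a median of −0.03, beside −0.10 for the 28 genes. EdgeR called 0 of them, 2 had an unadjusted p under 0.05 (14.0% over all genes) and DESeq2 called the same 2 as higher (6.36% called over all genes in either direction). These were Lbr, an inner nuclear membrane protein with the same C14 reductase activity as Tm7sf2, and Cyp7b1, an oxysterol hydroxylase. Lbr was at 47.2 ± 4.72 CPM in controls against 71.6 ± 9.87 CPM after osimertinib (0.60 ± 0.17, edgeR adjusted p = 0.260, DESeq2 adjusted p = 0.0303). Cyp7b1 was at 0.785, 1.97 and 0.693 CPM in controls against 3.74, 2.57 and 12.4 CPM after osimertinib (2.44 ± 0.76, edgeR adjusted p = 0.286, DESeq2 adjusted p = 0.0333). These 2 were the only ones of the 34 with separated groups. In both, every treated library was above every control, against 11.3% of all genes. Next by p was Erlin2, which takes part in the degradation of HMG-CoA reductase (−0.63 ± 0.26). Of the LXR targets outside the 28 genes, 9 were tested, 3 were above 0 and 6 below, with a median of −0.14, and 0 had an unadjusted p under 0.05 in edgeR or were called by DESeq2. Among them Srebf1, Nr1h3 and Apoe were also counted in the 40 further sterol genes.

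A list made up mostly of fatty acid synthesis and desaturation genes, which are chiefly controlled by SREBP1, spread more widely than the 28 sterol genes. Of 19 tested, 7 had log2 fold changes above 0 and 12 below, with a median of −0.27 and a range from −1.71 to 2.41. The list includes Tmem97 (0.50 ± 0.38), which was also counted among the 40 further sterol genes above. EdgeR called 0, 4 had an unadjusted p under 0.05, against 14.0% of all genes, and DESeq2 called 3 as higher and 1 as lower, against 6.36%. Every treated library was above every control in 3, against 11.3%, and below in 2, against 9.38%. The 3 with the smallest p were the desaturases Scd2 (1.66 ± 0.32), Fads1 (0.87 ± 0.18) and Fads2 (2.41 ± 0.51), each with separated groups and each with an adjusted p of 0.188 to 0.192 in edgeR. Scd2 was at 54.8, 74.8 and 42.8 CPM in controls against 148, 247 and 148 CPM after osimertinib. The lower genes with separated groups, named after their values were seen, were Pnpla3, a lipid droplet protein with lipase activity (−1.71 ± 0.50, edgeR adjusted p = 0.269, DESeq2 adjusted p = 0.0309), and Acly, which makes cytosolic acetyl-CoA (−0.33 ± 0.20, edgeR adjusted p = 0.520). Marker lists of other cells differed between the same libraries. Hair shaft and inner root sheath markers were higher in every treated library as a share of the count, as given above. Of 15 proliferation markers, all detected in every library, 15 had log2 fold changes above 0 (median 1.08). Over all genes tested, 54.7% were below 0. In 10 of the 15, every treated library was above every control, against 11.3% of all genes. Proliferation markers made up 0.0262% to 0.0786% of the count in controls and 0.0769% to 0.123% in treated skin. Of 14 adipocyte markers, all detected in every library, 14 were below 0 (median −0.77), against 54.7% of all genes tested. Adipocyte markers made up 0.0803% to 0.755% of the count in controls and 0.244% to 0.418% in treated skin. The part of these cells in the differences of the fatty acid genes was not tested.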

How the data were processed

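Mouse skin RNA was measured in 3 control and 3 osimertinib samples, grouped by their titles. Per the labels' protocols, polyadenylated RNA was made into dUTP-marked, paired-end libraries with molecular identifiers. The submitters' processing notes name cutadapt 1.9 and the build GRCm38. Which aligner, counting tool and annotation were used, and whether strand and identifiers were, is not given in the sources used here. The deposited table holds raw counts per gene, and beside them FPKM values that the authors computed, per the file headers. The table has 6 more value columns whose names match none of the samples, and they were left out.

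The filter kept genes averaging 1 FPKM or more across the 6 libraries (13498), and their counts were tested with edgeR 4.0.16 in R 4.3.3 (quasi-likelihood, TMM scaling, no covariate, two-sided, Benjamini-Hochberg adjustment over all genes tested, threshold 0.05). Standard errors are the log2 fold change over the square root of F, and 95% intervals use the degrees of freedom of the fit. CPM values use TMM factors. Scores use log2 CPM with a prior count of 2. Replicates of a group differed by far more than sampling noise (chi-square per degree of freedom of at least 207.5). DESeq2 1.42.0, limma 3.58.1, other scalings, filters, a replicate block, a muscle covariate and leaving out each library were run as alternatives. Group separation in other scalings was examined after seeing the data.

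The 28 genes, the role groups and the other lists were chosen with earlier results of these data known, so list counts and medians are descriptions. All 28 genes are named. Of other lists, up to 3 genes with the smallest p are named where none passed. No protein sequences were used. For each gene the promoter window nearest to the gene's start was taken.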

Additional observations from a re-analysis of the deposited data

How the results depend on the processing

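The 28 sterol genes gave 0 calls under all 17 alternatives, with the 4 genes under the stricter filter (mean FPKM of at least 5) not tested there. The count over all genes was 0 in the main edgeR fit. In edgeR it was 2 under the filter at 5 FPKM, 1 when the muscle score entered the fit, and 0 in the remaining alternatives. With DESeq2 it was 858. With limma it was 3 after quantile normalization, and 17 and 2 on log2(FPKM + 1) and log2(FPKM + 0.1). The cause of these differences was not tested. The median of the 28 genes ran from −0.21 to 0.10 when single libraries were left out and from −0.09 to 0.03 otherwise, within 1 SD of the library score. The median of all genes was −0.05 as reported, and 0.07 and 0.10 with limma on log2(FPKM + 1) and log2(FPKM + 0.1), so fold changes from those fits are read against that shift. The unadjusted p of Insig1 was 0.0399 in edgeR with upper-quartile scaling and 0.0440 in edgeR without a filter. In limma it was 0.0374 with quantile normalization, and 0.0289 and 0.0292 on log2(FPKM + 1) and log2(FPKM + 0.1). Adjusted p in these fits ran from 0.331 to 0.515.

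Of the 28 genes, 14 kept the sign of their fold change under every alternative in which they were tested, among them Insig1 (0.44 to 0.96), Hsd17b7 (−1.40 to −0.50) and Npc1 (−0.76 to −0.34). The other 14 changed sign at least once. Insig2 was at 0.0395 with quantile normalization, 0.0833 and 0.0895 with limma on log2(FPKM + 1) and log2(FPKM + 0.1), and 0.0017 with the replicate block. Ebp was at 0.0026 and 0.0066 with these limma fits and 0.0664 with the muscle covariate, which also gave 0.0967 for Mvk, 0.0021 for Cyp51, 0.0295 for Scap and 0.0336 for Abcg1. With single libraries left out, the lowest and highest values were −0.38 and 0.0985 for Mvk, −0.0796 and 0.80 for Idi1, −0.58 and 0.23 for Lss, −0.57 and 0.23 for Cyp51, −0.68 and 0.14 for Msmo1, −0.0249 and 0.19 for Nsdhl, −0.22 and 0.0791 for Ebp, −0.0094 and 0.23 for Sc5d, −0.25 and 0.15 for Insig2, −0.45 and 0.0541 for Scap, −0.0558 and 0.51 for Srebf2, −0.23 and 0.49 for Stard4, −0.33 and 0.0965 for Abcg1 and −0.0257 and 0.20 for Mylip.

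No label says that a shared replicate number pairs samples, and the deposited column names number the libraries otherwise, so the numbers are not taken as pairs. Deviations from the group means correlated at 0.22, 0.03 and −0.11 for samples of numbers 1, 2 and 3. With 3 libraries per group these deviations sum to 0 for each gene, so the correlations cannot decide on pairing. With the replicate block edgeR called 0 genes and 0 sterol genes, and the median of the 28 was −0.09. At these depths counting error is small, and the 3 libraries per group set the precision.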
